A study of Mus musculus with 54 samples.

Results

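Cmpd60 is an inhibitor of the histone deacetylases HDAC1 and HDAC2, enzymes that take acetyl groups off histone tails and work inside larger complexes such as NuRD, Sin3 and CoREST. The response of the aged kidney to this compound was set against the response of the aged heart, gene by gene, in 22 of the 54 libraries of the series. The members were chosen by the library titles: 6 kidney libraries of Cmpd60-treated mice (numbers 50 to 55), 5 kidney libraries of vehicle-treated mice (45 to 49), 5 heart libraries of Cmpd60-treated mice (68 to 72) and 6 heart libraries of vehicle-treated mice (62 to 67). All came from male BL6 mice that had aged naturally to about 20 months and carried no stated transgene, and both arms were injected into the abdominal cavity every day for 14 days, with 22.5 mg/kg Cmpd60 or with vehicle alone. No young or uninjected mice were among these groups, and each library is 1 sample of whole tissue.

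The titles and source names of the kidney samples give 1 treatment and their treatment field gives the other, and the titles were followed. With the treatment field, every kidney direction below would turn, so all kidney values are those of the libraries titled Cmpd60 against the libraries titled vehicle. Under that field the interaction test called 381 genes instead of 19. The labels do not say which kidney and heart came from the same mouse. The tissues share no library, but each arm had fewer mice than kidney and heart libraries together. Some mice therefore gave both tissues, unless a tissue of the same mouse was sequenced repeatedly. The libraries were nevertheless treated as separate samples in every test. The effect of shared mice on the interaction test and on the counts over both tissues was not tested.

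Between 23584609 and 43792168 reads per library were counted on genes, and a count of 0 allowed a level of up to 3 counts, which is 0.0685 to 0.127 CPM (counts scaled to library size) before TMM scaling, counting error only. All other CPM values use the TMM library sizes. The labelled tissues were checked against marker genes of their main cell types. The 10 cardiomyocyte markers summed to between 73400 and 86700 CPM in the heart libraries and to between 2.63 and 17.7 CPM in the kidney libraries. The 9 proximal tubule markers measured in both tissues summed to between 7870 and 21300 CPM in kidney and to between 193 and 428 CPM in heart. Within the kidney, this proximal tubule sum was 7870 to 16900 CPM in the Cmpd60 libraries and 16300 to 21300 CPM in the vehicle libraries, and 7 of the 9 markers had a negative log2 fold change. The median over the 9 was -0.30, 1 fell at an unadjusted p-value below 0.01 in the kidney test, and none passed the adjusted threshold. The lymphocyte markers summed to 7.33 to 39.1 CPM in the Cmpd60 hearts and to 19.2 to 184 CPM in the vehicle hearts, and all 11 had a negative log2 fold change there. In kidney they summed to 74.1 to 310 CPM under Cmpd60 and to 110 to 1290 CPM under vehicle, and 9 of the 11 had a negative log2 fold change. In such bulk samples, fewer cells of a type and less RNA per cell cannot be told apart. The Cmpd60 kidney libraries 53 and 55 and the vehicle heart libraries 62 and 66 lay farthest from their groups, and counts are also given without these 4 libraries.

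Kidney and heart handle injected compounds differently. The proximal tubule of the kidney is rich in enzymes that oxidise, reduce and conjugate foreign and reactive molecules, glutathione S-transferases and carbonyl reductases among them, and many of these are targets of the transcription factor NRF2. The heart relies on oxidation of fatty acids in its muscle cells and on a matrix made by fibroblasts and valve cells. The question put to the data was which genes answered Cmpd60 differently in these tissues and which answered alike.

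Of 18003 genes measured in both tissues (counts above 2 in 3 or more libraries of each tissue), 19 (0.106%) responded differently in kidney and heart, by the tissue by treatment interaction in edgeR's quasi-likelihood test at an adjusted p-value below 0.05. The kidney response was the higher in 12 genes (0.0667%) and the lower in 7 (0.0389%). The 12 included 3 glutathione S-transferases (Gsta4, Gstp1, Gsto1), the carbonyl reductase Cbr1, the mitochondrial aldehyde dehydrogenase Aldh1b1, and Reep6 and Pbld1, and the 7 included Corin, Lipo1, Ttr, Trdn, Sdc2, the Fc receptor Fcgr2b and the NuRD helicase Chd3. The difference between the log2 fold changes ranged in size from 0.50 to 2.44. In 16 of the 19 genes the fold changes had opposite signs, and in 4 of these both reached an unadjusted p-value below 0.01. At an unadjusted p-value below 0.01, 513 genes (2.85%) differed.

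The interaction count depended on individual libraries. Leaving out 1 library at a time gave between 9 and 42 calls. The count moved by over 1.5 times without the Cmpd60 kidney libraries 51 (12 calls), 52 (42 calls) and 54 (31 calls), the vehicle kidney libraries 45 (10 calls), 46 (11 calls) and 47 (9 calls), the Cmpd60 heart libraries 70 (33 calls) and 72 (10 calls), and the vehicle heart libraries 63 (10 calls) and 64 (9 calls). Without the 4 libraries that stood apart, there were 20 calls, of which 15 were among the 19. Corin, Lipo1, Chd3, Gsta4, Cbr1, Pbld1, Reep6 and Aldh1b1 passed in all 22 sets of 21 libraries, whereas Sdc2 passed in 3, Hspb6 and Dap3 in 4, P3h4 in 8, Nat6 in 9, Trdn and Fbp2 in 13, Gstp1 and Fcgr2b in 14, Ttr in 15 and Gsto1 in 20 of the 22.

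Tested within its own libraries, the kidney showed 52 genes past the adjusted threshold (0.289%), 35 raised (0.194%) and 17 lowered (0.0944%) in Cmpd60-treated mice. The heart showed 231 (1.28%), 147 raised (0.817%) and 84 lowered (0.467%). The kidney count moved by over 1.5 times without the Cmpd60 libraries 50 (25 calls), 51 (26 calls) and 52 (104 calls) and without the vehicle libraries 45 (30 calls), 46 (19 calls), 47 (18 calls) and 49 (21 calls). The heart count did so without the Cmpd60 libraries 69 (72 calls) and 72 (35 calls) and without the vehicle libraries 63 (71 calls), 64 (79 calls), 65 (130 calls) and 67 (84 calls), and it was 96 without the 4 libraries that stood apart. Only 1 of the 228 genes called in heart and not in kidney passed the interaction test with the larger response in heart, and this was Chd3. This count was 7 without the Cmpd60 heart library 70, 6 without the Cmpd60 kidney library 52, and 1 to 5 in the other sets of 21 libraries. Of the 49 genes called in kidney and not in heart, 12 passed it with the larger response in kidney, a count that was 21 without the Cmpd60 kidney library 52, 7 without the vehicle kidney library 45, 5 without 46, 6 without 47 and 6 without 49. Among the genes called in heart, 176 (76.2%) had a kidney log2 fold change of the same sign. Among those called in kidney, 25 (48.1%) had a heart value of the same sign, and over all genes 55.5% did. With the kidney groups read from the treatment field, these counts were 55 of 231 heart calls, 27 of 52 kidney calls and 8011 of 18003 genes. The 147 genes raised in heart had a median log2 fold change of 0.49 in heart and 0.20 in kidney. The 35 raised in kidney had a median of 0.76 in kidney and -0.01 in heart. Each set was chosen by the test in its own tissue, which favours large values there. The medians therefore do not measure the difference between the tissues. The median standard error of a log2 fold change was 0.16 in kidney and 0.14 in heart, and 0.23 for the difference. Across all 18003 genes, which are not independent replicates, the log2 fold changes of the tissues had a Pearson's r of 0.121 and a Spearman's rho of 0.142, and r was 0.232 over the 12538 genes with a mean of at least 1 CPM in each tissue.

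**Figure D1:**
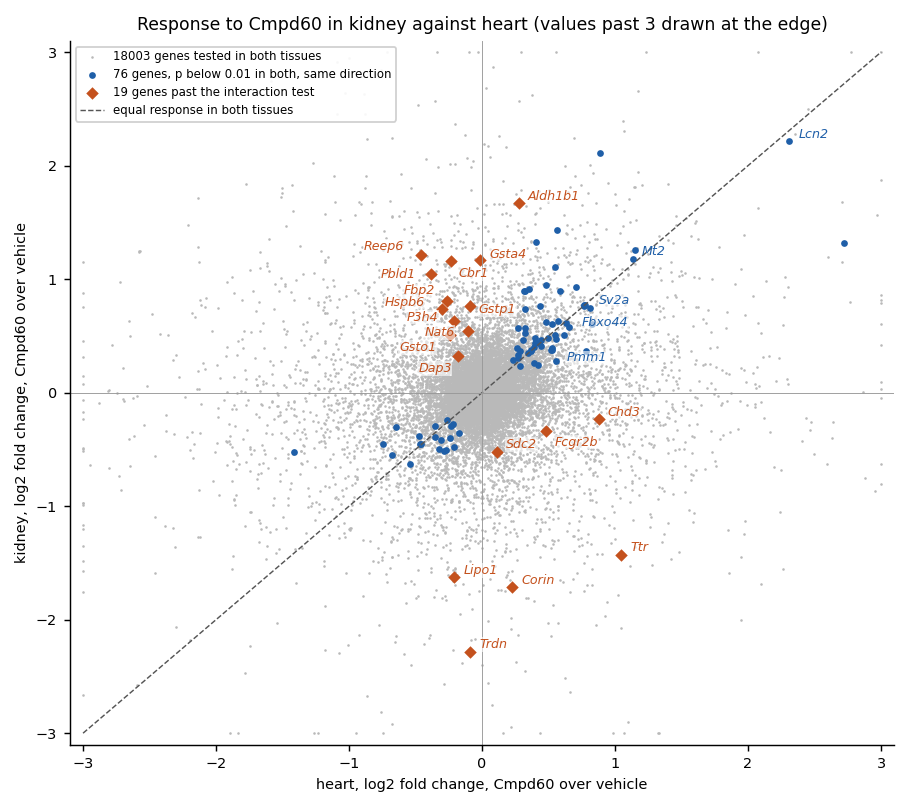
Each point is a gene measured in both tissues, with the heart log2 fold change (Cmpd60 over vehicle) on the x axis and the kidney log2 fold change on the y axis. The 19 genes past the interaction test (diamonds) sit away from the dashed line of equal response, 12 above and 7 below it, and the 76 genes with p below 0.01 and the same direction in both tissues (blue) lie along it.

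Of the 12 genes with a higher response in kidney, 3 were glutathione S-transferases. Glutathione S-transferases join glutathione to reactive and foreign molecules. Gsta4, which favours aldehydes from lipid peroxidation, stood at 18.7, 21.7, 22.6, 23.0 and 26.5 CPM in the vehicle kidneys and at 38.5 to 66.1 CPM (median 49.5) in the Cmpd60 kidneys, so the groups did not overlap. In heart it ranged from 82.0 to 95.7 CPM (median 92.1) under vehicle and was 75.1, 88.0, 91.9, 93.9 and 103 CPM under Cmpd60, with full overlap. The log2 fold change was 1.17 ± 0.15 (SE) in kidney (adjusted p = 0.00404) and -0.01 ± 0.08 in heart (adjusted p = 0.968), and the difference of 1.17 had a 95% interval of 0.80 to 1.55 (adjusted p = 0.00604). With the rise, the kidney level stayed under that of the heart.

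Gstp1 was measured at 72.0, 82.6, 84.8, 99.3 and 103 CPM in the vehicle kidneys and at 112 to 199 CPM (median 148) in the Cmpd60 kidneys, again with no overlap. In heart, it lay between 62.1 and 73.3 CPM under vehicle and at 60.4, 61.4, 62.8, 65.7 and 67.3 CPM under Cmpd60, with overlap. The difference between the tissues was 0.85 ± 0.16 (SE; adjusted p = 0.027). Gsto1 was at 24.5, 26.2, 26.5, 27.4 and 31.9 CPM in the vehicle kidneys and at 34.8 to 41.2 CPM (median 39.5) in the Cmpd60 kidneys, whereas the heart values of 104 to 135 CPM under Cmpd60 overlapped with those of 116 to 176 CPM under vehicle. Its difference was 0.74 ± 0.13 (adjusted p = 0.0183). Gstp1 has a close copy, Gstp2, and Gsto1 has a related gene, Gsto2. Reads that match both genes of a pair may be missing from the counts.

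Like the other gene lists, the glutathione S-transferase list was chosen with earlier results of these data known, so its counts are a description. Over the whole family, 24 transferases were measured in both tissues. In kidney 10 of them rose at an unadjusted p-value below 0.01, against 1.9% of all genes, and none fell (1.85% of all genes did). The adjusted threshold was passed by 4, all raised, against 0.194% of all genes. In heart, 2 rose (Gstm2 and Mgst1) and 1 fell (Mgst3) at p below 0.01, against 3.25% and 2.33% of all genes. The median log2 fold change of the family was 0.23 in kidney and -0.11 in heart, next to medians of 0.00241 and -0.000558 over all genes. The difference between tissues reached p below 0.01 in 9 members, each higher in kidney. Gsta2, the fourth that was called in kidney, rose from at most 261 CPM (median 166) under vehicle to 282 to 483 CPM (median 369) under Cmpd60. It was measured at 0.728 to 3.49 CPM in heart, and its difference of 1.76 ± 0.37 missed the threshold (adjusted p = 0.0583). For Gsta1, whose sequence is close to that of Gsta2, the values were 2.06 ± 0.57 in kidney and -0.42 ± 0.35 in heart (adjusted p of the difference 0.212). Gstm1 rose in kidney with log2 fold change 0.57 ± 0.13 at an unadjusted p of 0.000516 (difference 0.62, adjusted p = 0.0779). The membrane-bound Mgst3 had a log2 fold change of 0.48 ± 0.11 in kidney and of -0.30 ± 0.09 in heart (adjusted p = 0.0584 for the difference). The mu class members Gstm2, Gstm4 and Gstm5 had differences of -0.000101, -0.03 and 0.06. Gstp2, the close copy of Gstp1, had -0.52 ± 0.42 in kidney and -0.14 ± 0.41 in heart.

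**Figure D2:**
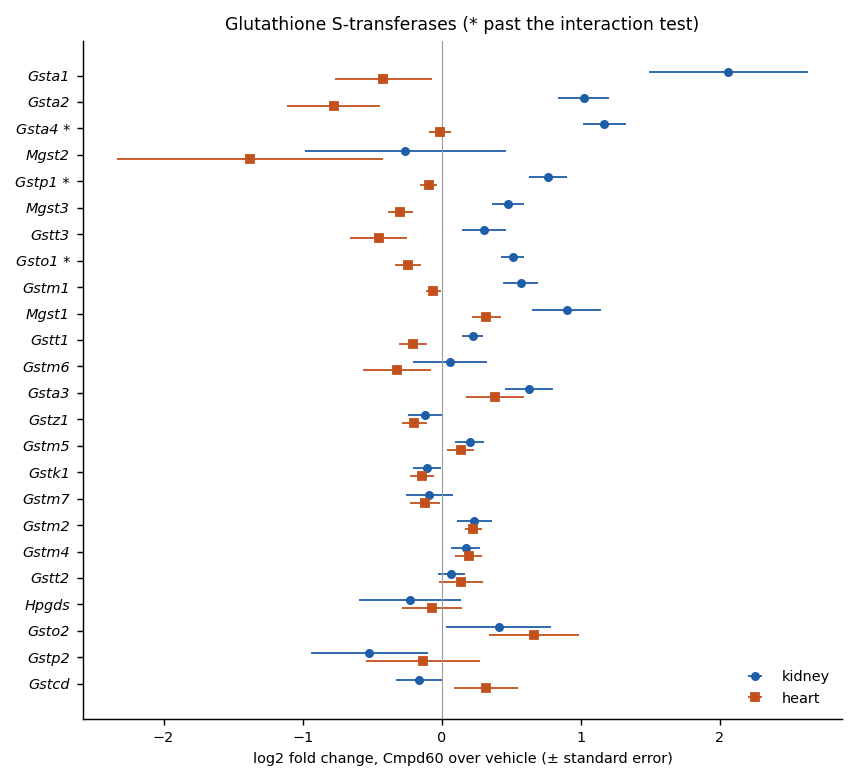
Log2 fold changes (Cmpd60 over vehicle) of the 24 glutathione S-transferases and related membrane enzymes measured in both tissues, kidney as circles and heart as squares, with bars of 1 standard error on either side. Members are ordered by the difference between tissues, and an asterisk marks Gsta4, Gstp1 and Gsto1, which passed the interaction test.

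Carbonyl reductase 1 (Cbr1), which reduces quinones and other carbonyls, showed the difference with the smallest adjusted p-value together with Lipo1. It was at 44.2, 45.1, 49.2, 59.8 and 68.0 CPM in the vehicle kidneys and at 87.0 to 157 CPM (median 107) in the Cmpd60 kidneys, without overlap. The vehicle hearts reached at most 33.6 CPM (median 28.5), and the Cmpd60 hearts were at 21.3, 23.4, 24.6, 25.4 and 29.2 CPM, with overlap. The log2 fold change was 1.16 ± 0.16 in kidney and -0.23 ± 0.10 in heart, and the difference was 1.38 (95% interval 0.97 to 1.79, adjusted p = 0.004). Among 27 NRF2 targets measured, Cbr1 was the member that passed the interaction test. In kidney 8 of the 27 rose and none fell at p below 0.01 (1.9% and 1.85% of all genes), and 24 had a positive log2 fold change (median 0.26). In heart 2 rose (Nqo1 and Akr1b8, against 3.25% of all genes) and the median was 0.04. Others that rose in kidney at p below 0.01 were the neighbouring reductase Cbr3 (1.14 ± 0.25), the epoxide hydrolase Ephx1 (0.66 ± 0.18), the export pump Abcc4 (0.48 ± 0.09, called), the glucose-6-phosphate dehydrogenase G6pdx (0.47 ± 0.10) and the ferritin light chain Ftl1 (0.57 ± 0.16). Their heart values lay between -0.29 and 0.13. The glutathione synthesis genes Gclc and Gclm, also targets, were at 0.10 and 0.13 in kidney and at -0.18 and -0.23 in heart, none of them past p below 0.05. The proximal tubule marker sum, at 7870 to 16900 CPM in the Cmpd60 kidneys and 16300 to 21300 CPM in the vehicle kidneys, was the lower in the group in which these enzymes were higher, and its part in their values was not tested. Apart from Cbr1, the members of this list were named after their values were seen.

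Aldh1b1, a mitochondrial dehydrogenase of acetaldehyde and related molecules, had the largest rise in kidney of the 19 genes. It was at 2.55, 2.55, 2.71, 2.90 and 2.98 CPM in the vehicle kidneys and at 5.40 to 14.5 CPM (median 8.05) in the Cmpd60 kidneys. In heart it ranged from 28.4 to 39.1 CPM under vehicle and was at 35.3, 36.8, 39.5, 41.4 and 48.4 CPM under Cmpd60. The log2 fold change of 1.67 ± 0.21 in kidney was set against 0.27 ± 0.10 in heart (difference 1.39, adjusted p = 0.0127), so the direction was the same and the size differed. The difference did not pass in either limma-voom fit.

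Reep6 and Pbld1 were rich in kidney and low in heart. Reep6, which shapes the endoplasmic reticulum, was at 67.6, 72.9, 73.1, 74.5 and 84.4 CPM in the vehicle kidneys and at 110 to 245 CPM in the Cmpd60 kidneys, against 4.04 to 6.03 CPM and 2.99 to 5.83 CPM in the hearts. Pbld1 was at 16.9, 17.7, 18.1, 18.7 and 21.1 CPM in the vehicle kidneys and at 31.5 to 43.0 CPM in the Cmpd60 kidneys, against 1.98 to 4.65 CPM and 1.56 to 2.73 CPM in the hearts. Kidney groups did not overlap in either gene, and heart groups overlapped in both. The differences were 1.66 ± 0.28 for Reep6 (adjusted p = 0.0123) and 1.43 ± 0.24 for Pbld1 (adjusted p = 0.0123), and neither passed with limma-voom in 1 fit of both tissues. Pbld1 has a close copy, Pbld2, and reads that match both may be missing from the counts.

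The lipase-like gene Lipo1 fell in kidney and did not pass the test in heart. Its values were 39.4 to 50.3 CPM (median 44.9) in the vehicle kidneys and 9.50 to 21.6 CPM (median 14.8) in the Cmpd60 kidneys, which brought the kidney close to the heart level of 8.74 to 12.3 CPM. The log2 fold change was -1.63 ± 0.17 in kidney and -0.21 ± 0.10 in heart, and the difference was -1.43 (95% interval -1.86 to -0.999, adjusted p = 0.004). Lipo1 lies in a family of near-identical genes, and reads that match several of them may be missing from the counts.

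Syndecan 2 (Sdc2), a heparan sulfate proteoglycan of the cell surface, was at 109, 119, 120, 127 and 135 CPM in the vehicle kidneys and at 75.4 to 106 CPM in the Cmpd60 kidneys, where library 52 had the highest value. Heart values were 52.4 to 74.0 CPM under vehicle and 61.0 to 75.0 CPM under Cmpd60. The difference was -0.64 ± 0.13 (adjusted p = 0.0475). Transthyretin (Ttr), a carrier of thyroid hormone and retinol-binding protein, fell from 25.5, 44.0, 44.2, 47.6 and 51.1 CPM in the vehicle kidneys to 10.4 to 22.6 CPM in the Cmpd60 kidneys. In heart it was at 0.0828 to 0.753 CPM under vehicle and 0.486 to 1.03 CPM under Cmpd60, levels near the floor of 3 counts. Its log2 fold change was -1.43 ± 0.21 in kidney and 1.05 ± 0.51 in heart (difference -2.44 ± 0.47, adjusted p = 0.027), and the difference did not pass with limma-voom in 1 fit of both tissues or with all 34 aged libraries.

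Corin and Trdn are heart muscle genes with a lower response in kidney, of which Corin was also called in kidney. Corin cleaves the precursor of atrial natriuretic peptide, and Trdn (triadin) anchors calcium release in muscle. Corin was at 3.74, 4.16, 5.07, 6.74 and 9.91 CPM in the vehicle kidneys and at 0.748 to 3.07 CPM (median 1.83) in the Cmpd60 kidneys, against 389 to 461 CPM and 451 to 547 CPM in vehicle and Cmpd60 hearts. The kidney groups did not overlap and the heart groups did. Its log2 fold change was -1.72 ± 0.32 in kidney (adjusted p = 0.0353) and 0.23 ± 0.06 in heart (unadjusted p = 0.00172), and the difference was -1.95 ± 0.31 (adjusted p = 0.00604). Trdn was at 0.617 to 2.07 CPM in the vehicle kidneys and at 0 to 0.455 CPM in the Cmpd60 kidneys, also without overlap, against 444 to 616 CPM in heart. Its log2 fold change of -2.28 ± 0.595 in kidney did not pass the adjusted threshold (adjusted p = 0.141), and the heart value was -0.09 ± 0.09. The difference of -2.26 ± 0.45 (adjusted p = 0.0273) did not pass in either limma-voom fit. The cardiomyocyte markers summed to 2.63 to 13.7 CPM in the Cmpd60 kidneys and 3.55 to 17.7 CPM in the vehicle kidneys. None of these 10 markers reached p below 0.01 in kidney, 9 had a negative log2 fold change, and their median was -0.61. Their part in the kidney values of Corin and Trdn was not tested.

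Opposite moves, with p below 0.01 in both tissues and past the interaction test, were found in Corin, Fcgr2b, Hspb6 and Fbp2. Fcgr2b, the inhibitory Fc receptor of B cells and myeloid cells, was at 34.7, 36.9, 39.7, 40.5 and 42.9 CPM in the vehicle kidneys and at 25.6 to 35.4 CPM in the Cmpd60 kidneys. In heart it went the other way, from 10.8 to 17.2 CPM under vehicle to 17.7, 18.2, 18.2, 21.5 and 23.8 CPM under Cmpd60. The kidney groups overlapped and the heart groups did not overlap. The log2 fold changes were -0.34 ± 0.09 and 0.48 ± 0.12 (adjusted p = 0.0273 for the difference). The 9 macrophage markers summed to 211 to 628 CPM in the Cmpd60 kidneys and 216 to 373 CPM in the vehicle kidneys, and to 547 to 638 CPM in the Cmpd60 hearts and 384 to 583 CPM in the vehicle hearts. Their part in the Fcgr2b values was not tested.

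Fbp2, a fructose bisphosphatase of muscle, was at 14.8, 18.0, 18.2, 19.2 and 25.5 CPM in the vehicle kidneys and at 25.1 to 42.2 CPM in the Cmpd60 kidneys, and in heart at 43.1 to 47.4 CPM under vehicle and at 30.0, 34.5, 38.5, 40.9 and 44.8 CPM under Cmpd60. The log2 fold changes were 0.80 ± 0.16 and -0.27 ± 0.09 (adjusted p = 0.027). The small heat shock protein gene Hspb6 was at 5.02 to 7.27 CPM in the vehicle kidneys and at 7.17 to 14.4 CPM in the Cmpd60 kidneys, against 619 to 757 CPM and 481 to 652 CPM in the hearts (difference 1.03 ± 0.21, adjusted p = 0.0475), and the difference did not pass in either limma-voom fit. In both genes the values of the groups overlapped within each tissue. A further 9 genes moved in opposite directions at p below 0.01 in both tissues without passing the interaction test, 2 of them raised in kidney (Mgst3 and Pdrg1) and 7 lowered (Arrdc3, Cpox, Cryz, Erf, H1f2, Nepn and Rp2). All 13 make up 0.0722% of the genes measured.

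The remaining genes past the interaction test were P3h4, Nat6 and Dap3. P3h4, which takes part in collagen modification, had log2 fold changes of 0.63 in kidney and -0.21 in heart (adjusted p = 0.0389). Nat6, an acetyltransferase gene, had values of 0.55 and -0.11 (adjusted p = 0.0339), and Dap3, a protein of the mitochondrial ribosome, had values of 0.32 and -0.18 (adjusted p = 0.0466). The kidney groups did not overlap in any of these genes, which held for 2.31% of all genes in kidney. Ttr, Trdn, Dap3, Nat6 and P3h4 fell outside the naming rule and were named after their values were seen.

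**Figure D3:**
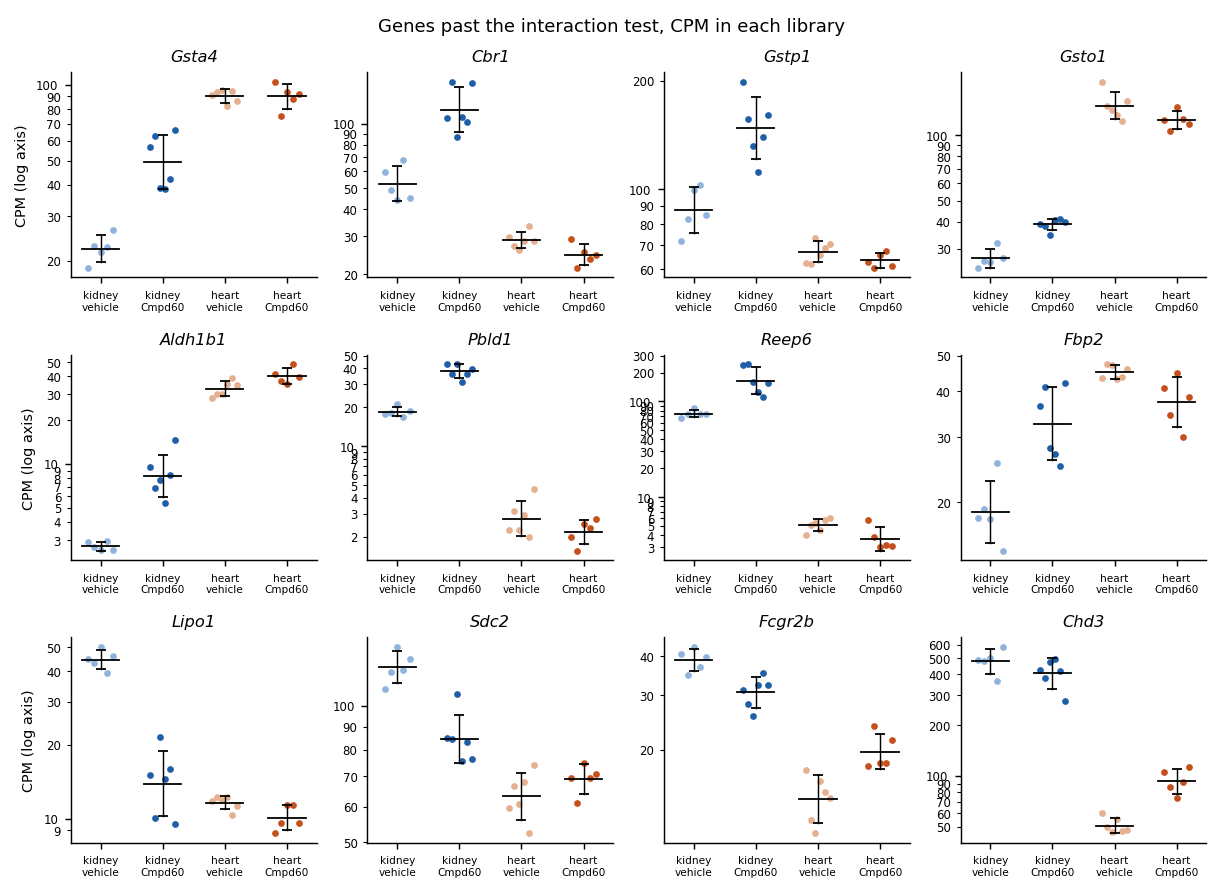
CPM in each library on a log axis for 12 genes past the interaction test, with vehicle and Cmpd60 libraries of kidney (light and dark blue) and heart (light and dark orange). Horizontal lines are means of log2 CPM and vertical bars are 1 SD on either side (n = 5 or 6). In Gsta4, Cbr1, Gstp1, Gsto1, Aldh1b1, Pbld1 and Reep6 the Cmpd60 kidneys lie above all vehicle kidneys, and in Chd3 the Cmpd60 hearts lie above all vehicle hearts.

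Among the genes called in heart, Chd3 was the one that passed the interaction test with the larger response in heart. It encodes a helicase of NuRD, a complex that holds HDAC1 and HDAC2. In heart it was at 46.2 to 60.0 CPM (median 48.7) under vehicle and at 73.7, 86.0, 91.9, 106 and 113 CPM under Cmpd60, with no overlap. In kidney it was at 366, 481, 487, 503 and 584 CPM under vehicle and at 278 to 495 CPM under Cmpd60, with overlap. The log2 fold change was 0.88 ± 0.11 in heart (adjusted p = 0.00196) and -0.23 ± 0.15 in kidney (adjusted p = 0.559), and the difference was -1.12 ± 0.19 (adjusted p = 0.0127). Among the 33 genes of HDAC1/2 complexes, Chd3 was the one called in heart, where 1.28% of all genes were called. None was called in kidney (0.289% of all genes were), and the medians of the list were 0.02 in kidney and -0.03 in heart. For the transcript of the target Hdac1 the log2 fold change was 0.20 ± 0.08 in kidney and 0.05 ± 0.10 in heart, and for Hdac2 it was 0.03 ± 0.10 and -0.08 ± 0.07, and the smallest adjusted p-value in either tissue was 0.382.

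Other genes that rose in heart were not shown to differ from kidney. Adamts9, a protease of versican in valves and vessels, went from 18.8 to 22.4 CPM in the vehicle hearts to 31.1, 33.0, 43.3, 48.1 and 72.7 CPM in the Cmpd60 hearts, while the kidney values of 16.2 to 23.0 CPM under vehicle and 13.3 to 26.6 CPM under Cmpd60 overlapped. Heart groups without overlap were found in 2.5% of all genes. The difference of -1.20 ± 0.25 missed the threshold (adjusted p = 0.0583). Smad6, an inhibitor of BMP signalling, was raised in heart by 0.52 ± 0.11 and had -0.08 ± 0.14 in kidney (adjusted p = 0.236 for the difference). For Scx, a transcription factor of tendon and valve cells, the values were 0.85 ± 0.19 and 0.15 ± 0.25 (adjusted p = 0.488). Emilin1, an elastic fibre protein, was raised in heart by 0.60 ± 0.12 and had 0.38 ± 0.14 in kidney (adjusted p = 0.782). Of 45 genes of heart valve and tendon-like matrix, 4 were called as raised in heart (0.817% of all genes were) and none in kidney (0.194%). None passed the interaction test, and the list medians were 0.10 in heart and 0.08 in kidney. This list was also chosen with earlier results of these data known. Of 39 genes of TGF-beta and BMP signalling, 9 rose in heart at p below 0.01 (3.25% of all genes did) and 1 (Id1) rose in kidney (1.9% of all genes did), with medians of 0.18 and -0.0012, and again none passed the interaction.

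Only 3 genes were called in both tissues, all 3 raised: Pmm1, Fbxo44 and Sv2a. No gene was called in opposite directions. Phosphomannomutase 1 (Pmm1), of mannose metabolism, was at 14.0, 15.5, 16.0, 16.8 and 17.9 CPM in the vehicle kidneys and at 21.2 to 23.6 CPM in the Cmpd60 kidneys. The vehicle hearts were at 15.8 to 20.3 CPM, with library 66 the lowest, and the Cmpd60 hearts at 22.9, 24.4, 24.8, 29.7 and 29.9 CPM. Groups did not overlap in either tissue. The log2 fold changes were 0.47 ± 0.08 (adjusted p = 0.0276) and 0.44 ± 0.09 (adjusted p = 0.0287), and the difference of 0.015 had a 95% interval of -0.24 to 0.27.

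Fbxo44, a substrate adaptor of a ubiquitin ligase, was at 14.7, 16.3, 16.8, 17.4 and 17.8 CPM in the vehicle kidneys and at 22.7 to 27.8 CPM in the Cmpd60 kidneys, and in heart at 14.0 to 21.0 CPM and at 23.9, 24.1, 25.5, 28.2 and 31.5 CPM. The log2 fold changes were 0.62 ± 0.08 and 0.48 ± 0.11, and the difference lay between -0.15 and 0.42. Sv2a, a synaptic vesicle protein, was at 13.6, 15.1, 16.3, 16.5 and 17.8 CPM in the vehicle kidneys and at 20.5 to 33.4 CPM in the Cmpd60 kidneys, and in heart at 4.95 to 8.99 CPM and at 8.23, 10.2, 15.5, 15.7 and 15.8 CPM. The heart groups of Sv2a overlapped. Its log2 fold changes were 0.75 ± 0.13 and 0.81 ± 0.18, and the difference lay between -0.56 and 0.42. In all 3 genes the 95% interval of the difference lay within 1.5-fold either way (0.585 on the log2 scale). That bound held for 7341 of all genes tested (40.8%), for 78 of the 231 genes called in heart (33.8%) and for 4 of the 52 called in kidney, so that for most called genes an unequal response could not be told from an equal one at this number of libraries. The count of shared calls lay between 0 and 6 in the sets of 21 libraries. It was 0 without the Cmpd60 heart library 72 or the vehicle heart libraries 63, 64 or 67. It was 1 without the Cmpd60 heart libraries 68 or 69, the vehicle heart library 65, the Cmpd60 kidney libraries 50 or 51, or the vehicle kidney libraries 45, 46, 47 or 49. It was 6 without the Cmpd60 kidney library 52 and 5 without the Cmpd60 kidney library 55.

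The upstream regions of these shared genes, and of the kidney-raised Gstp1, Gsto1 and Cbr1, are shown because the genes moved together in a tissue. Each is the 250 bases before the RefSeq transcription start on build GRCm38.p6, 5′ to 3′ on the strand of the gene, and Fbxo44 is given for the first of its 3 listed starts. The positions are chr19:4037913-4038162 (minus strand) for Gstp1, chr19:47854723-47854972 (plus strand) for Gsto1, chr16:93607587-93607836 (plus strand) for Cbr1, chr15:81960931-81961180 (minus strand) for Pmm1, chr4:148160095-148160344 (minus strand) for Fbxo44 and chr3:96180977-96181226 (plus strand) for Sv2a. Capitals mark matches on either strand to TGACNNNGC (a form of the core of the antioxidant response element bound by NRF2), TGAGTCA (the AP-1 site), GGGCGG (the GC box of Sp1) and ACGTG (the core bound by hypoxia-inducible factors). Other forms of the antioxidant response element were not searched for.
Gstp1: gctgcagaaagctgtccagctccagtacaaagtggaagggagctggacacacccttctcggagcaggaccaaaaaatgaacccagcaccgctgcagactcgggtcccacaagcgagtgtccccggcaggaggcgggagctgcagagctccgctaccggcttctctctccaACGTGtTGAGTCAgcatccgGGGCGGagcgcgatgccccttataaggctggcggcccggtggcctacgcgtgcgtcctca
Gsto1: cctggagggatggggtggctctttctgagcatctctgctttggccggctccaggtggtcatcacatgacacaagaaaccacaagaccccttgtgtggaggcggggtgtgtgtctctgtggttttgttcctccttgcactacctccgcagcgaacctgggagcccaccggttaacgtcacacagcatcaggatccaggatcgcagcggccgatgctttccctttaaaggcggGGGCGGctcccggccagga
Cbr1: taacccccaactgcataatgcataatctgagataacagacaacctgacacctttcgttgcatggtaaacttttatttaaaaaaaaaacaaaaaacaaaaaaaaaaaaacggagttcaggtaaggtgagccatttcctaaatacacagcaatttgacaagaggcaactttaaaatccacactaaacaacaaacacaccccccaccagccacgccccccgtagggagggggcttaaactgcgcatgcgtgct
Pmm1: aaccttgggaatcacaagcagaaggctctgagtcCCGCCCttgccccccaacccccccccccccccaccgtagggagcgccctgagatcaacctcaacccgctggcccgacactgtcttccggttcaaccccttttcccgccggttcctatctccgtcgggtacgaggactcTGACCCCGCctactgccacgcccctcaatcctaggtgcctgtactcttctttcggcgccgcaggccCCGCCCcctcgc
Fbxo44: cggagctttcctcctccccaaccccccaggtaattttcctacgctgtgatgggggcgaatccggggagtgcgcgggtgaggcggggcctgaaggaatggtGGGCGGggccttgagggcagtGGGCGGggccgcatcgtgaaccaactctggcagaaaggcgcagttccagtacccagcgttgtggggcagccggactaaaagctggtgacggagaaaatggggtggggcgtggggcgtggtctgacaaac
Sv2a: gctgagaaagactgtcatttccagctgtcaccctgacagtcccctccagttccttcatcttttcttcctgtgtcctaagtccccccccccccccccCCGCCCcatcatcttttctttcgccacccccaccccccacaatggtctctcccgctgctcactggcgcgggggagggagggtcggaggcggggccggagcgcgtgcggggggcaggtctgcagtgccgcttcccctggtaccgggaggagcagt

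The Gstp1 window held ACGTG and TGAGTCA within 80 bases of the start, from 80 to 76 and from 74 to 68 bases before it, followed by a GC box. Gsto1 held 1 GC box, and Cbr1 held none of the 4 motifs. Pmm1 held the TGACNNNGC core (letters TGACCCCGC, 78 to 70 bases before the start) and 2 GC boxes on the other strand, Fbxo44 held 2 GC boxes and Sv2a held 1. Over all 32851 listed windows, 10.2% held TGACNNNGC, 4.46% TGAGTCA, 32.7% GGGCGG and 16.6% ACGTG. Windows were listed for 7 of the 12 genes with the higher response in kidney, of which none held TGACNNNGC, 2 held TGAGTCA, 4 held GGGCGG and 3 held ACGTG. They were listed for 42 of the 56 genes raised in both tissues at p below 0.01, of which 10 (23.8%) held TGACNNNGC and 6 (14.3%) held TGAGTCA, against 13.9% and 4.22% of the 11820 matched genes among those tested. GGGCGG stood in 57.1% of the 42 and 60.9% of the matched genes tested, and ACGTG in 10 of the 42 (23.8%) and 2834 of the 11820. For the 20 genes lowered in both tissues, 17 had windows, of which 2 held TGACNNNGC, none TGAGTCA, 9 GGGCGG and 2 ACGTG. A match is a string of letters and not a bound site. A window without TGACNNNGC may still hold another form of the antioxidant response element.

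At an unadjusted p-value below 0.01 in both tissues, 76 genes (0.422%) moved in the same direction and 13 in opposite directions, so that 85.4% of these 89 genes shared their direction. The threshold is lenient, and these genes are given as a description. The 76 became 50 without the vehicle kidney library 49, and the 13 became 8 without the Cmpd60 heart library 69 and 7 without the vehicle kidney library 47. Of the 76, 56 rose and 20 fell, and in 49 the 95% interval of the difference lay within 1.5-fold. Markers of the acute phase and of metal binding were among those that rose the most. Lipocalin 2 (Lcn2), a secreted iron carrier and a known marker of tubule injury, was at 9.79, 13.1, 14.9, 26.7 and 34.9 CPM in the vehicle kidneys and at 14.4 to 259 CPM (median 69.3) in the Cmpd60 kidneys, with overlap. In heart it was at 3.83 to 6.14 CPM under vehicle and at 7.09, 8.56, 26.1, 34.1 and 45.4 CPM under Cmpd60, without overlap. On the log2 scale the fold changes were 2.21 ± 0.61 and 2.31 ± 0.38, but the interval of the difference ran from -1.79 to 1.58, so that an unequal response was not bounded closely. Within each tissue the Cmpd60 libraries spread wider than the vehicle libraries.

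The metallothionein Mt2 was at 15.2, 16.0, 19.9, 26.5 and 33.3 CPM in the vehicle kidneys and at 13.8 to 97.6 CPM in the Cmpd60 kidneys, in which library 52 was the lowest. The hearts were at 24.3 to 36.5 CPM under vehicle and, under Cmpd60, at 56.1, 56.3, 67.4, 69.1 and 80.0 CPM, with overlap in kidney and none in heart. Log2 fold changes were 1.18 ± 0.35 and 1.13 ± 0.12, and those of Mt1 were 0.90 ± 0.28 and 0.58 ± 0.11. Nqo1, the quinone reductase and an NRF2 target, was at 50.6, 50.9, 59.1, 68.8 and 70.2 CPM in the vehicle kidneys and at 75.6 to 177 CPM in the Cmpd60 kidneys, and in heart at 58.5 to 80.1 CPM and at 74.6, 88.3, 104, 114 and 124 CPM. The groups overlapped in heart only. Its log2 fold changes of 0.95 ± 0.20 and 0.48 ± 0.11 gave a difference that did not pass the test (difference 0.46, 95% interval -0.06 to 0.99, adjusted p = 0.594).

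A further 4 of the 56 genes were Lyve1, F13a1, Fcna and Cd209f, none of which passed the adjusted threshold in kidney. Lyve1, a hyaluronan receptor of lymphatic vessels and some macrophages, had log2 fold changes of 1.43 ± 0.34 in kidney and 0.56 ± 0.12 in heart. For the coagulation factor gene F13a1 they were 0.58 ± 0.18 and 0.66 ± 0.11, for the ficolin Fcna 1.26 ± 0.30 and 1.15 ± 0.22, and for the lectin Cd209f 1.10 ± 0.32 and 0.55 ± 0.16. In kidney the mean level of Lyve1, Cd209f and Fcna was below 2 CPM. Of 9 general macrophage markers, none reached p below 0.01 in kidney, 3 rose at that level in heart, and their list medians were 0.20 and 0.29. Angiotensinogen (Agt) rose by 0.61 ± 0.14 in kidney and 0.82 ± 0.18 in heart, and in both tissues the groups did not overlap. The cortisone reductase Hsd11b1 (0.51 ± 0.16 and 0.61 ± 0.12), the BMP target Id1 (0.63 ± 0.17 and 0.57 ± 0.13), cyclin D1 (Ccnd1, 0.61 ± 0.19 and 0.63 ± 0.16) and the TNF receptor Tnfrsf1a (0.41 ± 0.11 and 0.44 ± 0.08) rose in both.

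Among the 20 genes that fell in both, the steroid dehydrogenase Hsd17b11 was at 161, 186, 194, 254 and 264 CPM in the vehicle kidneys and at 120 to 175 CPM in the Cmpd60 kidneys. The hearts were at 64.6 to 83.7 CPM under vehicle and at 35.9, 39.7, 40.3, 58.1 and 58.7 CPM under Cmpd60, with overlap in kidney and none in heart. Fold changes on the log2 scale were -0.55 ± 0.14 and -0.68 ± 0.12. The transporters Slc47a1 (-0.39 ± 0.12 and -0.36 ± 0.09) and Slc15a2 (-0.53 ± 0.14 and -1.42 ± 0.42), the mismatch repair gene Msh3 (-0.30 ± 0.10 and -0.65 ± 0.09), the Fanconi ligase gene Fancl (-0.46 ± 0.15 and -0.75 ± 0.17) and the mitochondrial ribosome gene Mrps28 (-0.51 ± 0.16 and -0.27 ± 0.08) fell as well. Apart from Mrps28, which the rule names, the genes of the last 4 paragraphs were picked from the 76 after their values were seen.

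**Figure D4:**
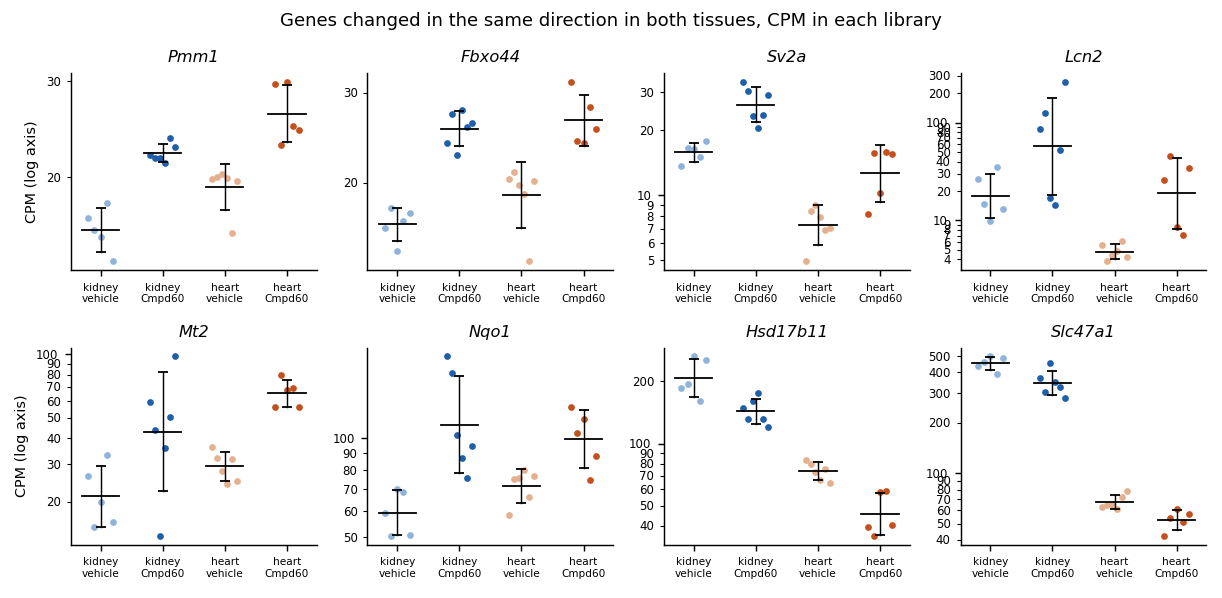
CPM in each library on a log axis for the 3 genes called in both tissues (Pmm1, Fbxo44, Sv2a) and 5 further genes with p below 0.01 and the same direction in both. Lines and bars are the mean and 1 SD of log2 CPM (n = 5 or 6), and the Cmpd60 kidneys spread over a wider range than the vehicle kidneys for Lcn2, Mt2 and Nqo1.

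Lists of genes from further pathways were described by their medians and by their counts at p below 0.01, a level at which 1.9% of all genes rose and 1.85% fell in kidney and 3.25% rose and 2.33% fell in heart. Of 17 injury response genes, all had a positive log2 fold change in kidney (median 0.61) and 14 in heart (median 0.25), but 2 in kidney (Lcn2 and Krt18) and 4 in heart (Lcn2, Timp1, Ccl2 and Serpina3n) rose at p below 0.01. Of 73 genes of the cytosolic ribosome, 68 were higher in kidney (median 0.25) and 47 in heart (median 0.03), and no member reached p below 0.01 in either tissue. Of 40 genes of fatty acid oxidation or targets of the PPAR receptors, 6 fell and 2 rose in heart at p below 0.01. In kidney 3 rose and none fell, and the list medians were -0.13 in heart and 0.03 in kidney. The gene Acaa1a, a peroxisomal thiolase, was one of these 6 (-0.17 ± 0.06 in heart and 0.17 ± 0.09 in kidney, adjusted p = 0.283 for the difference), and Hadha had 0.28 ± 0.09 in kidney and -0.15 ± 0.08 in heart (adjusted p = 0.249). Of 21 genes of the integrated stress response, 5 rose and 1 fell in kidney at p below 0.01, and 1 rose and 1 fell in heart. The one that fell in kidney was the serine synthesis gene Psat1 (-0.61 ± 0.17, with 0.31 ± 0.17 in heart, adjusted p = 0.176). Of 28 interferon-stimulated genes, 3 rose in kidney and 1 in heart at p below 0.01, 24 had a positive log2 fold change in kidney and 21 in heart, and the medians were 0.32 and 0.15. No gene of these lists passed the interaction test.

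**Figure D5:**
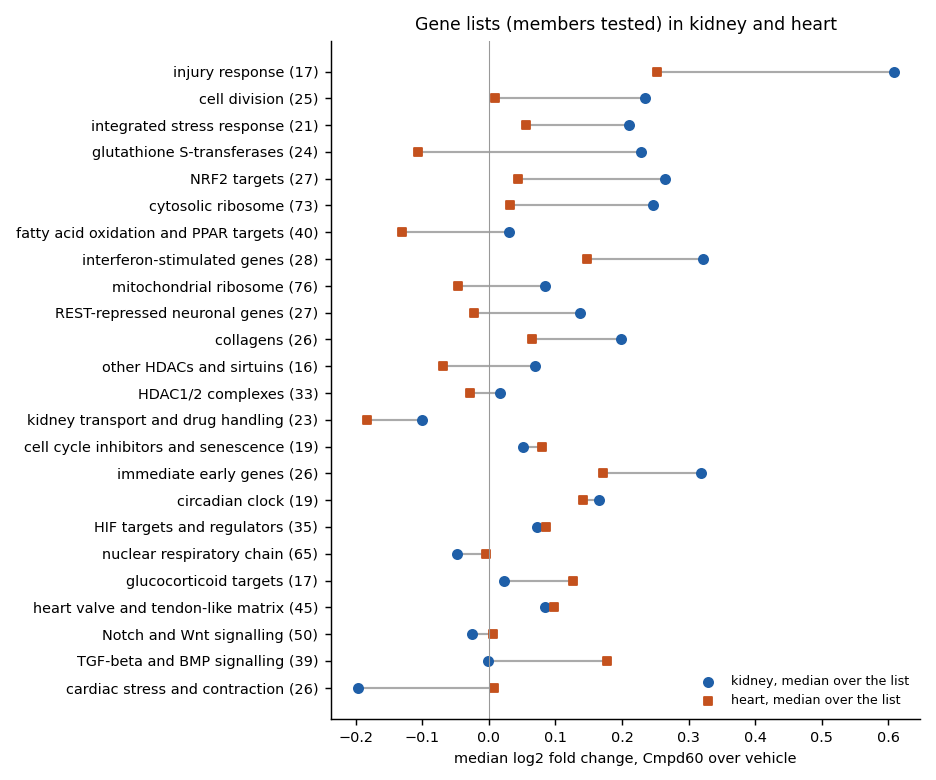
Median log2 fold change (Cmpd60 over vehicle) over the measured members of 24 gene lists, with the number of members in brackets, for kidney (circles) and heart (squares). Lists are ordered by the median difference between tissues, and the glutathione S-transferases lie at 0.23 in kidney and -0.11 in heart.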

How the data were processed

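Poly(A) RNA libraries of whole kidney and heart were compared. The deposited values are raw counts per gene, which the authors made, per the labels and the submitters' processing notes, with FastQC, Trimmomatic 0.32, HISAT2 2.1.0 and HTSeq 0.11.0. The genome build is not given in the sources used here. The 5 summary lines of each file, 16.62 to 22.15% of its total, stayed out of all sums. A gene was kept where 3 or more libraries of each tissue held counts above 2. The tissue by treatment interaction was tested in 1 fit of the 22 libraries, and each tissue in a fit of its own, with edgeR 4.0.16 (R 4.3.3), TMM scaling, the quasi-likelihood test and Benjamini-Hochberg adjustment over all 18003 genes at 0.05. Standard errors are Wald errors from these fits, and intervals are 95%. CPM values use the TMM library sizes. Alternatives were DESeq2 1.42.0, limma 3.58.1 (voom), other scalings and filters, more libraries and each library left out.

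Groups follow the titles, which the kidney treatment field contradicts. The methods of the study give 6 Cmpd60 and 7 vehicle aged mice in all, fewer in each arm than its kidney and heart libraries together. Nothing links libraries to mice, so p-values measure the spread between these libraries and make no allowance for shared mice. Named genes were those with a mean of at least 1 CPM in each tissue that had the largest differences among interaction calls made in heart, in kidney, or in opposite directions, those called in both tissues, genes the study names, and the members of each gene list with the smallest interaction p-values. The members, lists and rule were chosen with earlier results of these data known. Upstream sequences are from RefSeq (GRCm38.p6). Tested on simulated data (17497 genes, 200 changed in kidney only), the interaction test recovered 153 with 10 false calls, and 12, 42, 49 and 50 of 50 at 1.5, 2, 3 and 4-fold. The 200 were drawn from genes with a mean of at least 50 counts in each tissue, and all libraries were simulated as independent. The recovery therefore does not cover genes at lower counts, such as Trdn in kidney and Ttr in heart, or tissues that share mice.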

Additional observations from a re-analysis of the deposited data

Results flagged for a closer look

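Among 36 genes the text turns on, each of the 4 groups was searched for a library whose gap to its nearest neighbour took up more of the group's range than Dixon's test allows, and 7 groups held one. Chance alone gives about 1 in 20 of the groups searched. With 36 genes in 4 groups each, the 7 are about as many as chance alone gives. The libraries below are therefore listed as a description only. In the vehicle heart library 66, Pmm1 was at 15.8 CPM and Fbxo44 at 14.0 CPM, both below the other 5 libraries, and this library also stood apart over all genes. In the vehicle heart library 65, Gstm1 was at 283 CPM. In the Cmpd60 kidney library 55, which stood apart over all genes, Hdac1 was at 65.8 CPM. In the Cmpd60 kidney library 52, Sdc2 was at 106 CPM, nearest to the vehicle kidneys. In the vehicle kidney library 49, P3h4 was at 3.62 CPM and Ttr at 25.5 CPM, both the lowest of their group.

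The 19 genes of the interaction test had the following differences (kidney minus heart, log2 fold change). Those with the higher value in kidney were Reep6 (1.66), Pbld1 (1.43), Aldh1b1 (1.39), Cbr1 (1.38), Gsta4 (1.17), Fbp2 (1.06), Hspb6 (1.03), Gstp1 (0.85), P3h4 (0.84), Gsto1 (0.74), Nat6 (0.65) and Dap3 (0.50). Those with the lower value in kidney were Ttr (-2.44), Trdn (-2.26), Corin (-1.95), Lipo1 (-1.43), Chd3 (-1.12), Fcgr2b (-0.83) and Sdc2 (-0.64).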

How the results depend on the processing

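No paired analysis was possible because the library numbers differ in every group and the labels do not tie kidneys and hearts to mice. All 19 interaction genes kept the sign of their difference under every other tool, scaling, filter and sample set tried, other than with the kidney groups read from the treatment field, where 2 of the 19 kept it. DESeq2 called more: 160 genes in the interaction (66 higher and 94 lower in kidney, 19 of them the genes named above), 351 in kidney, 711 in heart, 38 in both alike, 5 in both opposite, 25 within 1.5-fold, and 46 heart and 50 kidney calls that differed between tissues. Limma-voom called 11 interaction genes and 6 differing kidney calls. Limma-voom in each tissue alone called 33 and 4 differing heart calls, and robust edgeR gave 5 genes in both alike and 2 differing heart calls. A minimum of 10 counts gave 30 interaction genes and 3 differing heart calls. A fit with all 34 aged libraries, brain included, gave 150 interaction genes, 647 in kidney, 378 in heart, 37 in both alike, 1 opposite, 143 and 22 genes at p below 0.01 in both, 27 within 1.5-fold, and 50 heart and 75 kidney calls that differed. The kidney treatment field gave 381 interaction genes, 0 in both alike, 3 opposite, 13 alike and 76 opposite at p below 0.01, 0 within 1.5-fold, and 82 and 24 differing calls. Without the 4 libraries that stood apart, which was chosen after seeing the data, heart had 96 calls and 3 differing ones. The cause of these changes was not tested. Leaving out 1 library at a time gave 9 to 42 interaction genes, 18 to 104 in kidney, 35 to 248 in heart, 0 to 6 in both alike, 0 to 1 opposite, 50 to 98 and 7 to 17 at p below 0.01, 0 to 4 within 1.5-fold, and 1 to 7 heart and 5 to 21 kidney calls that differed. Depth limits genes near the floor, such as Trdn in kidney and Ttr in heart.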
